A study of Mus musculus with 407 samples.

Results

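Integrins are the cell surface receptors that tie the cytoskeleton to the extracellular matrix, and laminins are the trimeric proteins that form the core of basement membranes. The 37 genes described here are all integrin and laminin chains in the deposited tables that the naming rule found, namely the gene symbols that begin with Itga or Itgb, or with Lama, Lamb or Lamc, and end in the number or letter of a chain. They were 18 integrin alpha chains, 8 integrin beta chains, 5 laminin alpha chains, 3 laminin beta chains and 3 laminin gamma chains, of 24458 gene symbols in all. The study sequenced bulk RNA from 4 muscles of C57BL/6J mice, the diaphragm and 3 hindlimb muscles (gastrocnemius, soleus and tibialis anterior), in both sexes at 6 ages (6, 12, 18, 21 and 24 months and, as the oldest, 27 months), and asked how gene expression changes with age in each muscle. The 407 libraries fell into 48 groups of muscle, sex and age with 6 to 10 libraries each, and every comparison of 27 with 6 months had 10 against 8 libraries. All mice were of a single inbred strain, with no treatment named in the labels, bought at various ages and kept in one facility for about 12 weeks. Muscles of one age group were collected on one day, so that age and collection day cannot be told apart, and the labels do not tie the 4 muscles to individual mice.

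Each integrin is a pair of one alpha and one beta chain, and each laminin is a triple of one alpha, one beta and one gamma chain. Around the muscle fibre the main laminin holds the chains Lama2, Lamb1 and Lamc1, and the fibre binds it through the integrin pair Itga7 and Itgb1 and through dystroglycan. Loss of Lama2 causes a congenital muscular dystrophy in humans and in mice. Other laminins line the neuromuscular synapse and the capillaries, others hold epithelia to their basement membrane, and the beta 2 integrins are receptors of leukocytes.

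Library depth was 38583802 to 300089909 counts with a median of 72766895, and the second deepest library held 104836980. Because a bulk library sums all cells of a muscle, fewer cells of a type and less RNA per cell cannot be told apart in any value below. Slow fibre markers were higher in the soleus than in the gastrocnemius for 6 of 6 genes in both sexes, and 7 of 7 tested mesothelial markers were higher in the diaphragm, which is covered by mesothelium, as the muscle labels would have it. 8 libraries stood apart by the relation of their counts to gene GC content: 6 of the diaphragm, whose slopes of log2 count on GC fraction were -22.3 to -8.19, and 2 of the gastrocnemius, at 6.03 and 7.14, while those of the other libraries were -2.24 to 2.62. Acta1, the actin of skeletal muscle fibres, was at 105 to 1741 CPM (counts scaled to a fixed library total) in those 6 diaphragm libraries and at 4421 to 8537 in the other diaphragm libraries. Counts and calls of members that changed without these 8 libraries are given both ways. Levels within a gene are CPM scaled by trimmed mean of M-values (TMM) factors, levels between genes are CPM per kilobase of the longest transcript, and a call of an age change is a Benjamini-Hochberg adjusted p under 0.05 from edgeR's quasi-likelihood test over all genes.

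Over all ages, and without the libraries that stood apart, the most abundant member per kilobase was Itgb1, the beta chain shared by most matrix integrins. Its median was 43.2 to 53.2 CPM per kilobase in the 8 combinations of muscle and sex, and it ranked first of the 37 members in each. High levels were also those of Lamb2, the beta chain of synaptic and vascular laminins, at 16.6 to 31.3 CPM per kilobase, of Itgb5, a vitronectin receptor chain, at 16.7 to 24.8, and of Lamc1, the common gamma chain, at 16.9 to 21.9. Itgav, the alpha chain that pairs with Itgb5, was at 9.92 to 17.9, Itga7 at 11 to 15.9, Lama2 at 9.74 to 14.4, and Itgb6, a chain best known from epithelia, at 10.8 to 21.5. The laminin alpha chains ranked in a different order in the diaphragm than in the limb muscles: Lama4, the alpha chain of capillary laminin, was at 14.2 in female and 13.4 in male diaphragm, against 11 and 12.8 for Lama2, whereas in the 3 limb muscles Lama4 was at 6.77 to 9.77 and lay below Lama2 in each combination. The leukocyte chain Itgad and the embryonic laminin chain Lama1 were the lowest, at no more than 0.011 and 0.009 CPM per kilobase.

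**Figure D1:**
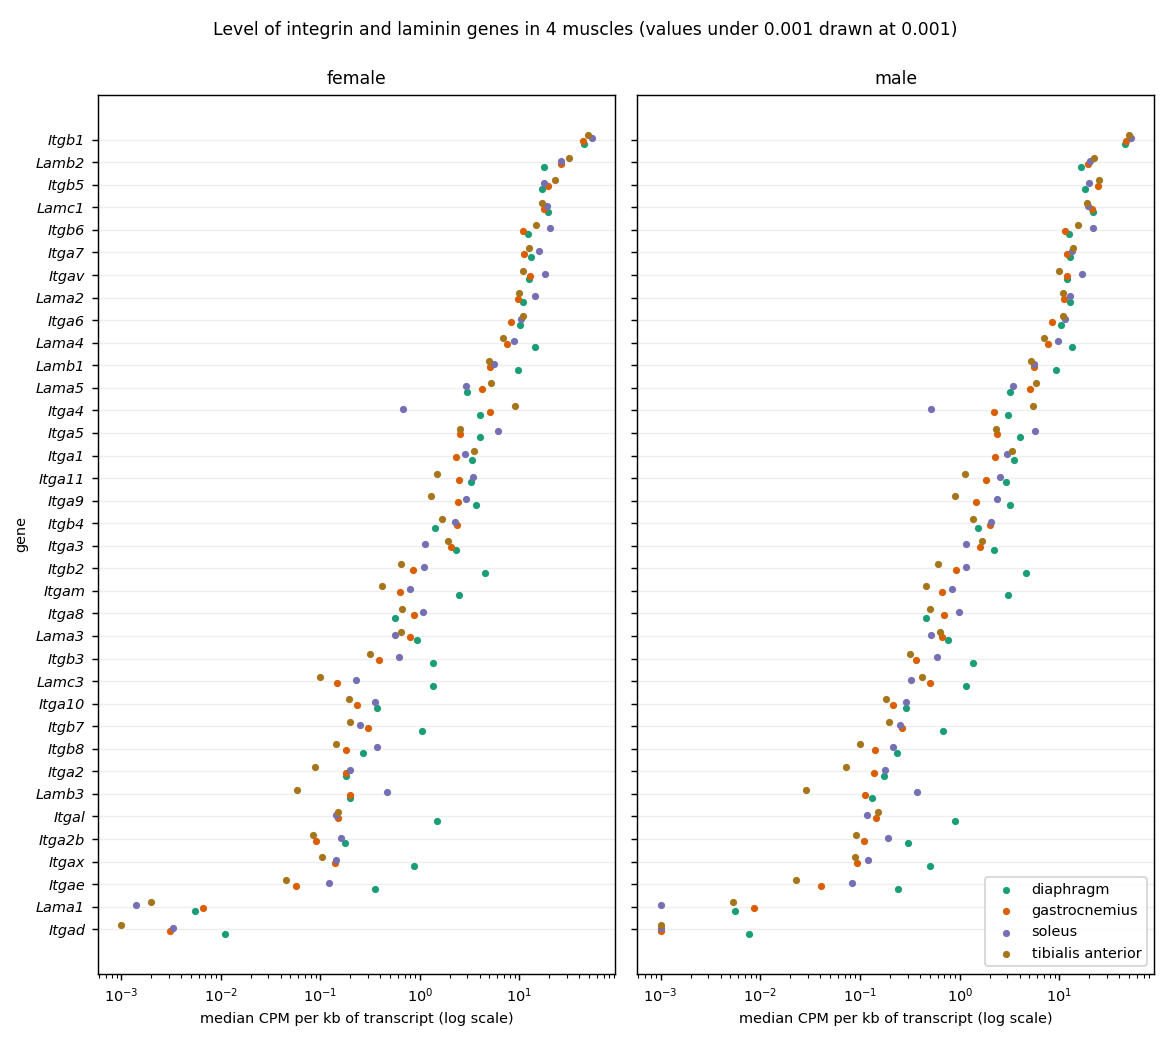
Median level of integrin and laminin chains in each muscle and sex, over all ages and without the libraries that stood apart, in CPM per kilobase of the longest transcript on a log axis, ordered by level. Itgb1 is highest in each combination, at 43.2 to 53.2 CPM per kilobase, and the leukocyte chains lie higher in the diaphragm than in the limb muscles.

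Between 6 and 27 months 30 of the 37 members changed in at least 1 of the 8 combinations of muscle and sex. Of 286 tests, 73 passed, 47 of them rises and 26 falls. The share of all genes was not counted for these totals, and is given for each combination. In the female gastrocnemius 13 of 36 tested members rose and 2 fell, where 14.6% of all tested genes rose and 14.6% fell. In the male gastrocnemius 8 of 36 rose and 4 fell, beside 10.6% and 12.6% of all genes. In the female soleus 6 of 35 rose and 9 fell (10% and 8.74% of all genes). The female tibialis anterior had 8 rises and 2 falls of 35 members (12.1% and 9.84% of all genes), and the male tibialis anterior had 5 and 3 of 35 (9.97% and 7.81%). The male diaphragm had 7 rises and 3 falls of 37 members, where 5.13% of all genes rose and 3.52% fell. Leaving out the 8 libraries that stood apart, 11 rose and 3 fell in the female gastrocnemius, 11 and 4 in the male gastrocnemius and 7 and 4 in the male diaphragm. Of all genes, 2137 then rose and 2293 fell of 15356 in the female gastrocnemius. In the male gastrocnemius 2119 rose and 2015 fell of 15293, against 1617 and 1925 of 15227 with them. In the male diaphragm 1156 rose and 783 fell of 16032, against 824 and 566 of 16075.

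Few members passed in the female diaphragm and the male soleus. In the female diaphragm 1 of 37 members fell, beside 0.988% of all genes, and 0 rose, beside 0.624%. By edgeR's quasi-likelihood test 3 members there were higher at an unadjusted p under 0.05, and voom and DESeq2 called 0 and 0 rises. In the male soleus 2 of 35 fell (1.05% of all genes) and 0 rose (1.8%), with 4 members higher at an unadjusted p under 0.05 in edgeR and 0 and 0 rises called by voom and DESeq2. Itga1, Itga3, Itga6, Itga8, Itga11, Itgad and Itgb4 passed in no combination. 3 members fell in the female diaphragm without the libraries that stood apart, where 479 of 16142 genes fell, against 160 of 16193 with them. Among the members that then passed, Itga11, a collagen receptor chain, passed in the diaphragm of both sexes, at log2 folds of -0.55 (SE 0.14, adjusted p = 0.0153) in females and -0.69 (SE 0.19, adjusted p = 0.0203) in males. One member, the collagen receptor chain Itga10, passed in opposite directions: it rose by 0.88 in the male diaphragm (SE 0.25, edgeR adjusted p = 0.0265) and fell by 0.53 in the female soleus (SE 0.18, adjusted p = 0.0278).

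**Figure D2:**
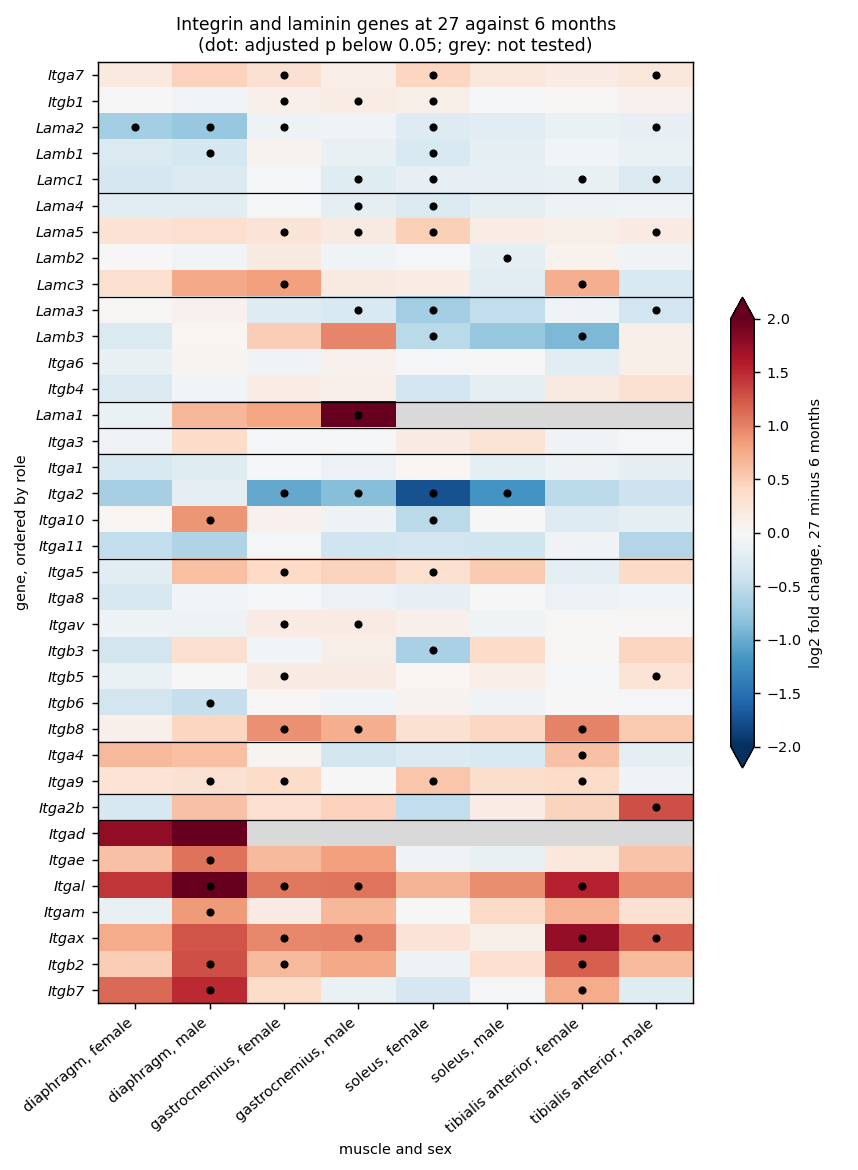
Log2 fold change at 27 against 6 months of integrin and laminin chains, ordered by role, in each muscle and sex, with calls at an edgeR adjusted p under 0.05 marked. Lama2 is lowest in both diaphragm columns, at -0.69 and -0.76, and the leukocyte chain Itgal reaches 2.28 in the male diaphragm.

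Lama2, the laminin alpha chain of the fibre, fell most in the diaphragm. The gene lies on the minus strand at chr10:26980036-27619758 (mm10). Its RefSeq promoter (GRCm38.p6, chr10:27616893-27617192, minus strand, 250 bases before to 50 after the start) and that of Lama5, the alpha chain that rose in 4 combinations (chr2:180225810-180226109, minus strand), are shown because these alpha chains moved in opposite directions. Capitals mark GAGGAA or its reverse TTCCTC, the core bound by the leukocyte factor PU.1, and GGGCGG or its reverse CCGCCC, the GC box.
Lama2: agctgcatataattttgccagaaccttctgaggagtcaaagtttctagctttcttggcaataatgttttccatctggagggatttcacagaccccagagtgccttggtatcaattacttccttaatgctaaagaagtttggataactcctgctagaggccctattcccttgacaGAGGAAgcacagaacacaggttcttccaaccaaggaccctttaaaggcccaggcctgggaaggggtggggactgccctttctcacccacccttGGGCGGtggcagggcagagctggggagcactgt
Lama5: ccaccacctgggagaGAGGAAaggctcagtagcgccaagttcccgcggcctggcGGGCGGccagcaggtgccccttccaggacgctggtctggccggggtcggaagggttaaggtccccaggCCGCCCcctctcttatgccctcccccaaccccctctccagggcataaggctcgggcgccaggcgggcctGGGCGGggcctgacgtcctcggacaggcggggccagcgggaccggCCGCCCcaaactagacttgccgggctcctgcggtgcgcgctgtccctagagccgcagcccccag
The Lama2 window lies inside the gene span given above, so its start is not the outer end of that span. It held 1 PU.1 core and 1 GC box, and its GC content was 50.3%. The Lama5 window held 1 PU.1 core and 4 GC boxes at 72.7% GC, against a median of 52.7% over all 32851 promoters of the table. The PU.1 core occurred in 28.3% and the GC box in 35.7% of all promoters. Such a match describes the letters only.

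In the female diaphragm Lama2 ranged from 122 to 207 CPM at 6 months with a median of 151, and from 60.1 to 160 with a median of 93.5 at 27 months. 9 of the 10 libraries at 27 months lay below all 8 at 6 months. The log2 fold was -0.69 (SE 0.13, edgeR adjusted p = 0.00224), and without the libraries that stood apart it was -0.73 (adjusted p = 0.000125) and the groups did not overlap. In the male diaphragm the range was 153 to 262 CPM (median 166) at 6 months and 45.3 to 135 (median 110) at 27 months. The male groups did not overlap, and the log2 fold was -0.76 (SE 0.13, adjusted p = 0.000443). The group medians over the 6 ages, from youngest to oldest, were 151, 133, 105, 107, 103 and 93.5 CPM in females and 166, 133, 121, 95.5, 128 and 110 CPM in males. Against 6 months the female difference did not pass at 12, 18 or 21 months (-0.24, -0.42 and -0.47) and passed at 24 months (-0.57, edgeR adjusted p = 0.010), and at 21 months it passed without the libraries that stood apart (-0.45, adjusted p = 0.0276). The male difference did not pass at 12 or 18 months (-0.42 and -0.54) and passed at 21 months (-0.69, adjusted p = 0.00403) and 24 months (-0.52, adjusted p = 0.0371), the last of which did not pass without those libraries (-0.42, adjusted p = 0.0873).

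**Figure D3:**
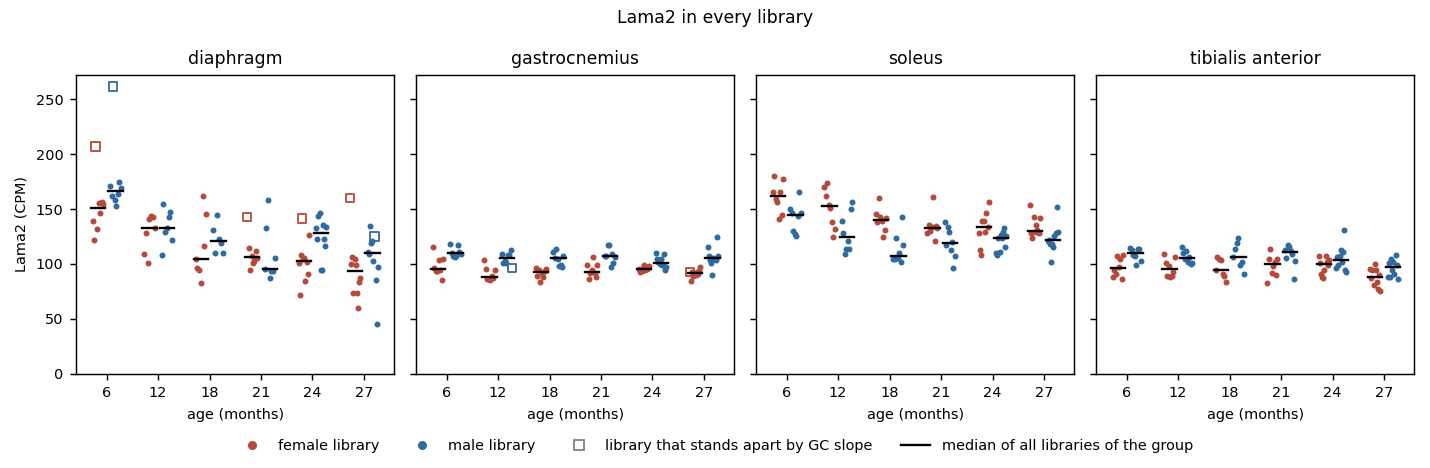
Lama2 in every library by age, in CPM, for the 4 muscles, with females in red, males in blue, group medians as black bars and the libraries that stood apart as open squares. In the diaphragm the medians go from 151 to 93.5 CPM in females and from 166 to 110 CPM in males.

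In the limb muscles the log2 folds of Lama2 were closer to 0. Lama2 fell by 0.26 on the log2 scale in the female soleus (SE 0.06, edgeR adjusted p = 0.0018), where 7 of 10 libraries at 27 months lay below all 8 at 6 months. It fell by 0.11 in the female gastrocnemius (SE 0.04, adjusted p = 0.0477) and by 0.16 in the male tibialis anterior (SE 0.06, adjusted p = 0.0431), and in both the ranges overlapped and the call was lost with the run of sample numbers, which is described with the diaphragm values, as a covariate. It did not pass in the male gastrocnemius (-0.06, adjusted p = 0.28), the male soleus (-0.21, adjusted p = 0.118) or the female tibialis anterior (-0.13, adjusted p = 0.136). The change of Lama2 from 6 to 27 months was tested against that of the gastrocnemius and was larger in the diaphragm, with a log2 difference of -0.57 in females (SE 0.12, adjusted p = 0.000506) and -0.67 in males (SE 0.11, adjusted p = 1.3e-05).

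Values of other features also changed in the diaphragm, not all of them downward, and their part in the fall of Lama2 was not tested. The summed level of 10 fibroblast markers there went from 1762 to 3043 CPM (median 2482) to 1073 to 2235 (median 1591) in females and from 2108 to 2919 (median 2378) to 1256 to 2438 (median 1651) in males, with 3 and 2 of the 10 called down, or 8 and 5 without the libraries that stood apart. Of 9 satellite cell markers, a list that holds the fibre gene Des, 3 fell in females and 3 fell and 1 rose in males, and without those libraries 6 fell in females. Over all libraries their sum was 154 to 926 CPM (median 592) at 6 and 105 to 821 (median 761) at 27 months in females. In males it was 97.8 to 804 (median 750.0) and 329 to 1024 (median 763). The 10 Schwann cell markers went from 88.7 to 141 CPM (median 103) to 74.9 to 100.04 (median 89.4) in females, with 1 called down. In males they went from 94.8 to 133 (median 110.3) to 65.5 to 100.01 (median 87.7), with 3 called down, or 4 without those libraries. The summed level of 10 liver markers in the male diaphragm was 34.6 to 405 CPM (median 69.1) at 6 months and 10.3 to 11769 (median 28.7) at 27 months. 5 of them fell once the libraries that stood apart were left out, with a median log2 fold of -4.37 over the list. The sample numbers in the labels formed 3 runs whose meaning is not stated. Within the male diaphragm's first run, Lama2 was at 162 to 171 CPM in 2 libraries of 6 months and at 102 to 135 in 6 libraries of 27 months. Within the female diaphragm's second run it was at 132 to 207 CPM in 6 libraries of 6 months and at 60.1 to 160 in 8 libraries of 27 months. With the run as a covariate the male value of Lama2 was -0.56 (edgeR adjusted p = 0.0671), and 0 of 37 members passed in the male diaphragm, with 4 at an unadjusted p under 0.05.

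The partners of Lama2 in the fibre laminin also fell where they passed. Lamc1 fell in 4 combinations. In the male tibialis anterior it was at 140 to 165 CPM (median 157) at 6 months and 110 to 143 (median 127) at 27 months, and 9 of 10 old libraries lay below all young ones. The log2 fold was -0.29 (SE 0.05, edgeR adjusted p = 2.36e-05). In the male gastrocnemius Lamc1 went from 169 to 199 CPM (median 174) to 136 to 171 (median 147), a log2 fold of -0.24 (adjusted p = 0.000954), with 7 of 10 old libraries below all young ones. The falls in the female soleus and the female tibialis anterior were 0.17 (adjusted p = 0.0241) and 0.15 (adjusted p = 0.0194). Lamc1 also passed in the diaphragm without the libraries that stood apart, at -0.37 in females (adjusted p = 0.0320) and -0.33 in males (adjusted p = 0.0275), and in the same way in the female gastrocnemius (-0.09, adjusted p = 0.0230). Lamb1, the beta chain, fell in the male diaphragm, from 44.9 to 73.6 CPM (median 61.1) to 40.2 to 61.6 (median 47.3), a log2 fold of -0.36 (adjusted p = 0.0378) with overlapping groups. That call was lost with the run as a covariate and in 5 of 18 fits that left out 1 library. In the female soleus Lamb1 went from 34.1 to 41.3 CPM (median 39.9) to 27.2 to 38.6 (median 31.8), with a log2 fold of -0.31 (adjusted p = 0.00219) and 8 of 10 old libraries below all young ones.

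The integrin pair that binds this laminin rose where it passed. Itga7 rose in the female soleus from 44.8 to 58.3 CPM (median 49.9) to 59.0 to 88.6 (median 65.1). These groups did not overlap, and the log2 fold was 0.43 (SE 0.07, edgeR adjusted p = 3.94e-05). In the male tibialis anterior Itga7 rose from 44.9 to 53.5 CPM (median 47.2) to 45.8 to 66.5 (median 56.4), by 0.23 (adjusted p = 0.00469), and in the female gastrocnemius from 34.5 to 46.3 CPM (median 42.5) to 38.3 to 91.4 (median 47.7), by 0.30 (adjusted p = 0.00545). The highest value of the female gastrocnemius was a library that stood apart, and without it the rise was 0.16 (adjusted p = 0.00626). Without the libraries that stood apart Itga7 also passed in the male diaphragm (0.39, adjusted p = 0.0192) and the male gastrocnemius (0.15, adjusted p = 0.00446). Itgb1 rose by 0.10 in the female gastrocnemius (SE 0.04, adjusted p = 0.0457), by 0.15 in the male gastrocnemius (SE 0.05, adjusted p = 0.0331) and by 0.12 in the female soleus (SE 0.04, adjusted p = 0.0369). These calls of Itgb1 were lost in 10, 3 and 10 of 18 fits that left out 1 library, in the female gastrocnemius also with voom and without a filter, and in the female soleus without a filter. In the male gastrocnemius 9 of 10 libraries at 27 months lay above all 8 at 6 months, and the range went from 161 to 176 CPM (median 165) to 144 to 220 (median 185).

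Of the synaptic and vascular chains, Lama5 rose and Lama4 fell where they changed. Lama5, an alpha chain of synaptic and mature capillary laminin, rose in the female soleus from 20.6 to 35.3 CPM (median 26.9) to 27.8 to 46.4 (median 36.5), with 7 of 10 old libraries above all young ones and a log2 fold of 0.48 (SE 0.11, edgeR adjusted p = 0.00122). It also rose by 0.18 in the male gastrocnemius (adjusted p = 0.0428), by 0.16 in the male tibialis anterior (adjusted p = 0.0415) and by 0.26 in the female gastrocnemius (adjusted p = 0.00703), where it was 0.15 (adjusted p = 0.0142) without the library that stood apart. The calls in the male gastrocnemius and tibialis anterior were lost with the run as a covariate and in 9 and 10 of 18 fits that left out 1 library, and in the tibialis anterior also with voom and without a filter. In the 6 diaphragm libraries that stood apart Lama5 was far below its level in the rest: the lowest library was at 1.72 CPM of the 6-month females and 0.898 CPM of the 6-month males, against lowest values of 26.2 and 31.2 CPM without them. Lama4 fell in the female soleus from 52.9 to 71.5 CPM (median 65.3) to 44.2 to 62.0 (median 53.4), a log2 fold of -0.29 (SE 0.07, adjusted p = 0.00227), and in the male gastrocnemius by 0.18 (adjusted p = 0.0316), which was 0.16 without the libraries that stood apart and no longer passed (adjusted p = 0.0607). Lamb2, the beta chain concentrated at the synapse, fell in the male soleus from 113 to 130 CPM (median 122) to 92.5 to 118 (median 105), by 0.18 (adjusted p = 0.0352), with 8 of 10 old libraries below all young ones. This call was lost without a filter and in 10 of 18 fits that left out 1 library. Lamc3, a gamma chain of nerve and other tissues, rose in the female gastrocnemius from 0.385 to 0.785 CPM (median 0.558) to 0.727 to 1.52 (median 0.948), by 0.83 (adjusted p = 0.000275). In the female tibialis anterior it rose from 0.346 to 0.562 CPM (median 0.455) to 0.441 to 1.02 (median 0.733), by 0.73 (adjusted p = 0.00119).

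The epithelial chains Lama3 and Lamb3, which belong to one laminin, both fell in the female soleus. Lama3 fell in the female soleus (-0.70, SE 0.14, edgeR adjusted p = 0.000428), the male tibialis anterior (-0.38, adjusted p = 0.0158) and the male gastrocnemius (-0.30, adjusted p = 0.0331). Lamb3 fell in the female soleus from 1.63 to 4.54 CPM (median 2.49) to 1.22 to 2.61 (median 1.86), by 0.54 (adjusted p = 0.0129). In the female tibialis anterior Lamb3 fell from 0.230 to 0.799 CPM (median 0.344) to 0.0676 to 0.360 (median 0.253), by 0.91 (adjusted p = 0.0259). The groups overlapped in both muscles. Keratinocyte markers varied between libraries of one group: the summed level of the 8 markers was 6.21 to 560 CPM (median 8.85) at 6 months and 7.13 to 17.4 (median 11.2) at 27 months in the female soleus, and 9.71 to 114 (median 13.4) and 22.0 to 40.5 (median 25.9) in the female tibialis anterior. Of the 4 keratinocyte markers tested there, 3 fell in the female soleus, and 1 rose and 3 fell in the female tibialis anterior, and their part in the values of Lama3 and Lamb3 was not tested. Lama1, the alpha chain of the embryonic basement membrane, rose in the male gastrocnemius from 0 to 0.0994 CPM (median 0.0073) to 0.0131 to 0.354 (median 0.147). Its fitted log2 fold was 2.28 (adjusted p = 0.00393), at levels so low that the size of the fold depends on the prior count.

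Itga2, the alpha chain of the collagen receptor of platelets and epithelia, had the 3 largest log2 falls among the members at 27 months, in the soleus of both sexes and the female gastrocnemius. The gene lies at chr13:114833081-114932100 (mm10, minus strand). In the female soleus it ranged from 2.18 to 4.34 CPM (median 3.26) at 6 months and from 0.446 to 1.86 (median 0.947) at 27 months. The groups did not overlap, and the log2 fold was -1.75 (SE 0.23, edgeR adjusted p = 3.5e-07). In the female gastrocnemius it went from 1.86 to 2.76 CPM (median 2.28) to 0.645 to 1.95 (median 1.07), a log2 fold of -1.02 (adjusted p = 1.51e-05), and in the male gastrocnemius from 1.18 to 1.89 CPM (median 1.38) to 0.402 to 1.2 (median 0.814), a log2 fold of -0.85 (adjusted p = 0.000682). In each of these 9 of 10 old libraries lay below all young ones. In the male soleus it went from 1.03 to 2.31 CPM (median 2.07) to 0.0453 to 1.44 (median 0.863), a log2 fold of -1.2 (adjusted p = 0.0307). The other 4 combinations did not pass at 27 months, with log2 folds of -0.66 and -0.19 in female and male diaphragm and -0.54 and -0.41 in female and male tibialis anterior. At earlier ages, which share the 6-month libraries with the comparisons above, Itga2 passed from 18 months on in the female soleus (-1.10 at 18, -1.40 at 21 and -1.57 at 24 months, edgeR adjusted p = 0.00463, 4.21e-05 and 3.75e-06) and did not pass at 12 months (-0.57, adjusted p = 0.432). It also passed at 21 and 24 months in the female diaphragm (-1.32 and -1.34, adjusted p = 0.0062 and 0.00168), where it did not pass at 27 months. Among the other collagen receptor chains, Itga1 ranged from -0.30 to 0.04 in the 8 combinations and passed in none.

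Of the receptors for the RGD motif of fibronectin and vitronectin, changes were mostly rises of small size. Itgb8, which with Itgav activates latent transforming growth factor beta, rose by 0.92 in the female gastrocnemius (SE 0.20, edgeR adjusted p = 0.000425), by 0.73 in the male gastrocnemius (SE 0.18, adjusted p = 0.00198) and by 0.99 in the female tibialis anterior (SE 0.21, adjusted p = 0.000428). In that muscle its range went from 0.772 to 1.2 CPM (median 0.971) to 0.777 to 3.03 (median 1.86), and 9 of 10 old libraries lay above all young ones. Itgav rose by 0.16 in the female and 0.17 in the male gastrocnemius, and Itgb5 by 0.16 in the female gastrocnemius and 0.27 in the male tibialis anterior and, without the libraries that stood apart, by 0.18 in the male gastrocnemius (adjusted p = 0.0238). Itga5, the fibronectin receptor chain, rose by 0.32 in the female soleus (adjusted p = 0.0262) and by 0.39 in the female gastrocnemius (adjusted p = 0.015), which was 0.18 and did not pass without the library that stood apart (adjusted p = 0.0757). 2 chains fell. Itgb3, the beta chain of platelet and osteoclast integrins, fell by 0.66 in the female soleus (adjusted p = 0.00135), and Itgb6 by 0.47 in the male diaphragm (adjusted p = 0.0448), where it did not pass without the libraries that stood apart (adjusted p = 0.0517). Itga2b, the platelet alpha chain, rose by 1.28 in the male tibialis anterior (adjusted p = 0.000476), where 2 of 3 tested platelet markers, a list that holds Itga2b itself, also rose.

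Itga9 and Itga4, which bind tenascin, osteopontin and the vascular adhesion molecule Vcam1, were the other receptors to rise. Itga9 went in the female soleus from 15.3 to 18.8 CPM (median 16.6) to 15.3 to 30.8 (median 26.3), by 0.56 (SE 0.12, edgeR adjusted p = 0.000609), with 8 of 10 old libraries above all young ones. In the female gastrocnemius it went from 12.6 to 18.0 CPM (median 15.8) to 17.9 to 22.9 (median 19.6), by 0.37 (adjusted p = 9.49e-06), with 9 of 10 above, and in the female tibialis anterior from 6.86 to 9.67 CPM (median 7.80) to 8.18 to 12.8 (median 10.3), by 0.37 (adjusted p = 0.00112). The rise in the male diaphragm, 0.30 (adjusted p = 0.0445), was 0.25 without the libraries that stood apart and did not pass (adjusted p = 0.0943). Itga4 passed in the female tibialis anterior and, without the libraries that stood apart, in the male gastrocnemius (-0.35, adjusted p = 0.0381). In the female tibialis anterior it rose from 62.0 to 68.0 CPM (median 64.0) to 66.4 to 117 (median 98.4), by 0.58 (SE 0.09, adjusted p = 1.98e-06). 9 of the 10 old libraries lay above all young ones.

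Some of the leukocyte integrins rose in the male diaphragm, the gastrocnemius and the tibialis anterior. Of the 7 leukocyte chains, 5 rose in the male diaphragm, beside 5.13% of all genes. Of the 6 tested in the limb muscles 3 rose in the female gastrocnemius (14.6% of all genes) and 2 in the male gastrocnemius (10.6%). The tibialis anterior had 4 rises in females (12.1%) and 1 in males (9.97%), the last of which is close to what that share gives. In the male diaphragm voom called 3 of the 7, and edgeR with the run as a covariate called 0, with 1 at an unadjusted p under 0.05. In the male tibialis anterior voom called 0 of 6, with 2 at an unadjusted p under 0.05. There DESeq2 called 2. In the gastrocnemius 2 rose in females and 3 in males once the libraries that stood apart were left out. In the female diaphragm and the soleus of females and males 0 passed in edgeR's quasi-likelihood test, in voom or in DESeq2, with 3, 1 and 0 chains at an unadjusted p under 0.05 in edgeR, and over the 8 combinations 0 fell at such a p. Itgal, which pairs with Itgb2 to form the lymphocyte receptor LFA-1, and Itgax, the alpha chain typical of dendritic cells, lie on the plus strand of one chromosome, at chr7:127296260-127335138 and chr7:128129547-128150657 (mm10), near Itgam, the chain of macrophages and neutrophils. The RefSeq promoters of Itgam (chr7:128062390-128062689) and Itgax (chr7:128129300-128129599; GRCm38.p6, plus strand), neighbours of which each rose in at least 1 combination, are shown with the same motifs in capitals.
Itgam: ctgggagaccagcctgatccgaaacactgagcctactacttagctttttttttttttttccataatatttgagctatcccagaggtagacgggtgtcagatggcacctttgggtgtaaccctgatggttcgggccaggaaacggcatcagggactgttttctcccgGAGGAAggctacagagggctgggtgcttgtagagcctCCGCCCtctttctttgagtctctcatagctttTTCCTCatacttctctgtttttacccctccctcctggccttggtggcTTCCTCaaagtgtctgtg
Itgax: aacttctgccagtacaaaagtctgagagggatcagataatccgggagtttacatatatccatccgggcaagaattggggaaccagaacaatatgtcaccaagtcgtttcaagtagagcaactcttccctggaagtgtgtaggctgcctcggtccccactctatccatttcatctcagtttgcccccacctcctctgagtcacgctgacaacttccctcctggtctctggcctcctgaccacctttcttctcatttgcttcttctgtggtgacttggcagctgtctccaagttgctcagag
The Itgam window held 3 PU.1 cores and 1 GC box, and the Itgax window held neither motif. Over the 26 promoters of the 23 members that the table lists, 14 held the PU.1 core and 12 the GC box.

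In the male diaphragm Itgal went from 1.5 to 3.95 CPM (median 2.57) at 6 months to 2.24 to 25.0 (median 12.7) at 27 months. 9 of the 10 old libraries lay above all young ones, and the log2 fold was 2.28 (SE 0.54, edgeR adjusted p = 0.0082). In the male gastrocnemius the groups did not overlap, at 0.350 to 0.752 CPM (median 0.511) and 0.868 to 1.85 (median 0.952), with a log2 fold of 1.07 (SE 0.34, adjusted p = 0.0159). In the female gastrocnemius Itgal went from 0.470 to 0.737 CPM (median 0.605) to 0.632 to 2.58 (median 1.10), by 1.05 (adjusted p = 0.00263), and in the female tibialis anterior from 0.425 to 0.968 CPM (median 0.638) to 0.777 to 4.10 (median 1.17), by 1.53 (adjusted p = 0.000464). 8 and 7 of the 10 old libraries lay above all young ones.

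Itgax did not overlap in the female tibialis anterior, at 0.177 to 0.363 CPM (median 0.252) at 6 months and 0.389 to 1.64 (median 0.666) at 27 months, a log2 fold of 1.76 (SE 0.34, edgeR adjusted p = 0.000145). It rose by 1.19 in the male tibialis anterior, from 0.125 to 0.470 CPM (median 0.224) to 0.182 to 1.06 (median 0.455) (adjusted p = 0.0201), by 0.97 in the female gastrocnemius, from 0.299 to 0.674 (median 0.509) to 0.521 to 2.07 (median 0.823) (adjusted p = 0.00974), and by 0.98 in the male gastrocnemius, from 0.190 to 0.509 (median 0.360) to 0.282 to 1.57 (median 0.589) (adjusted p = 0.0165). These 3 pairs of groups overlapped. Itgb2, the shared beta chain, rose by 1.29 in the male diaphragm (adjusted p = 0.0214), by 1.2 in the female tibialis anterior (adjusted p = 0.00328) and by 0.64 in the female gastrocnemius (adjusted p = 0.0141), where it was 0.38 and did not pass without the library that stood apart (adjusted p = 0.0908). In the male gastrocnemius Itgb2 passed without the library that stood apart there (0.78, adjusted p = 0.0404). Itgb7, a chain of lymphocytes that home to the gut, rose by 1.5 in the male diaphragm and 0.74 in the female tibialis anterior (adjusted p = 0.0367 and 0.0193). In the male diaphragm Itgae, an alpha chain partner of Itgb7, rose by 1.09 (adjusted p = 0.0228) and Itgam by 0.86 (adjusted p = 0.0362).

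Markers of leukocytes rose beyond the share of all genes in the male diaphragm and the female tibialis anterior only. Their part in the rises of the chains was not tested. Of 18 leukocyte markers that are no integrins, 8 rose in the male diaphragm (5.13% of all genes) and 9 of 16 tested in the female tibialis anterior (12.1%). The gastrocnemius had 2 rises of 15 in females (14.6%) and 1 of 16 in males (10.6%), which is no more than the share of all genes. In the male tibialis anterior 0 of 16 rose (9.97%). There 3 were higher at an unadjusted p under 0.05 in edgeR, voom called 1 and DESeq2 called 0. In the female diaphragm 0 of 18 rose in edgeR, voom or DESeq2 (0.624% of all genes), with 5 higher at an unadjusted p under 0.05 in edgeR. There 1 fell (0.988%), and in the female soleus 1 of 15 rose and 3 fell (10% and 8.74%). Leaving out the libraries that stood apart, 10 of 18 rose in the male diaphragm, 1 of 15 in the female and 2 of 16 in the male gastrocnemius, and the fall in the female diaphragm was lost. Their summed level went from 207 to 311 CPM (median 243) to 205 to 530 (median 405) in the male diaphragm and from 30.8 to 56.9 (median 47.2) to 45.0 to 131 (median 61.4) in the female tibialis anterior. In the female gastrocnemius the sums were 59.9 to 94.4 (median 71.8) and 67.0 to 143 (median 78.9), in the male gastrocnemius 63.6 to 91.7 (median 78.5) and 78.9 to 220 (median 84.1), and in the male tibialis anterior 43.2 to 75.2 (median 54.6) and 33.0 to 105 (median 63.9).

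**Figure D4:**
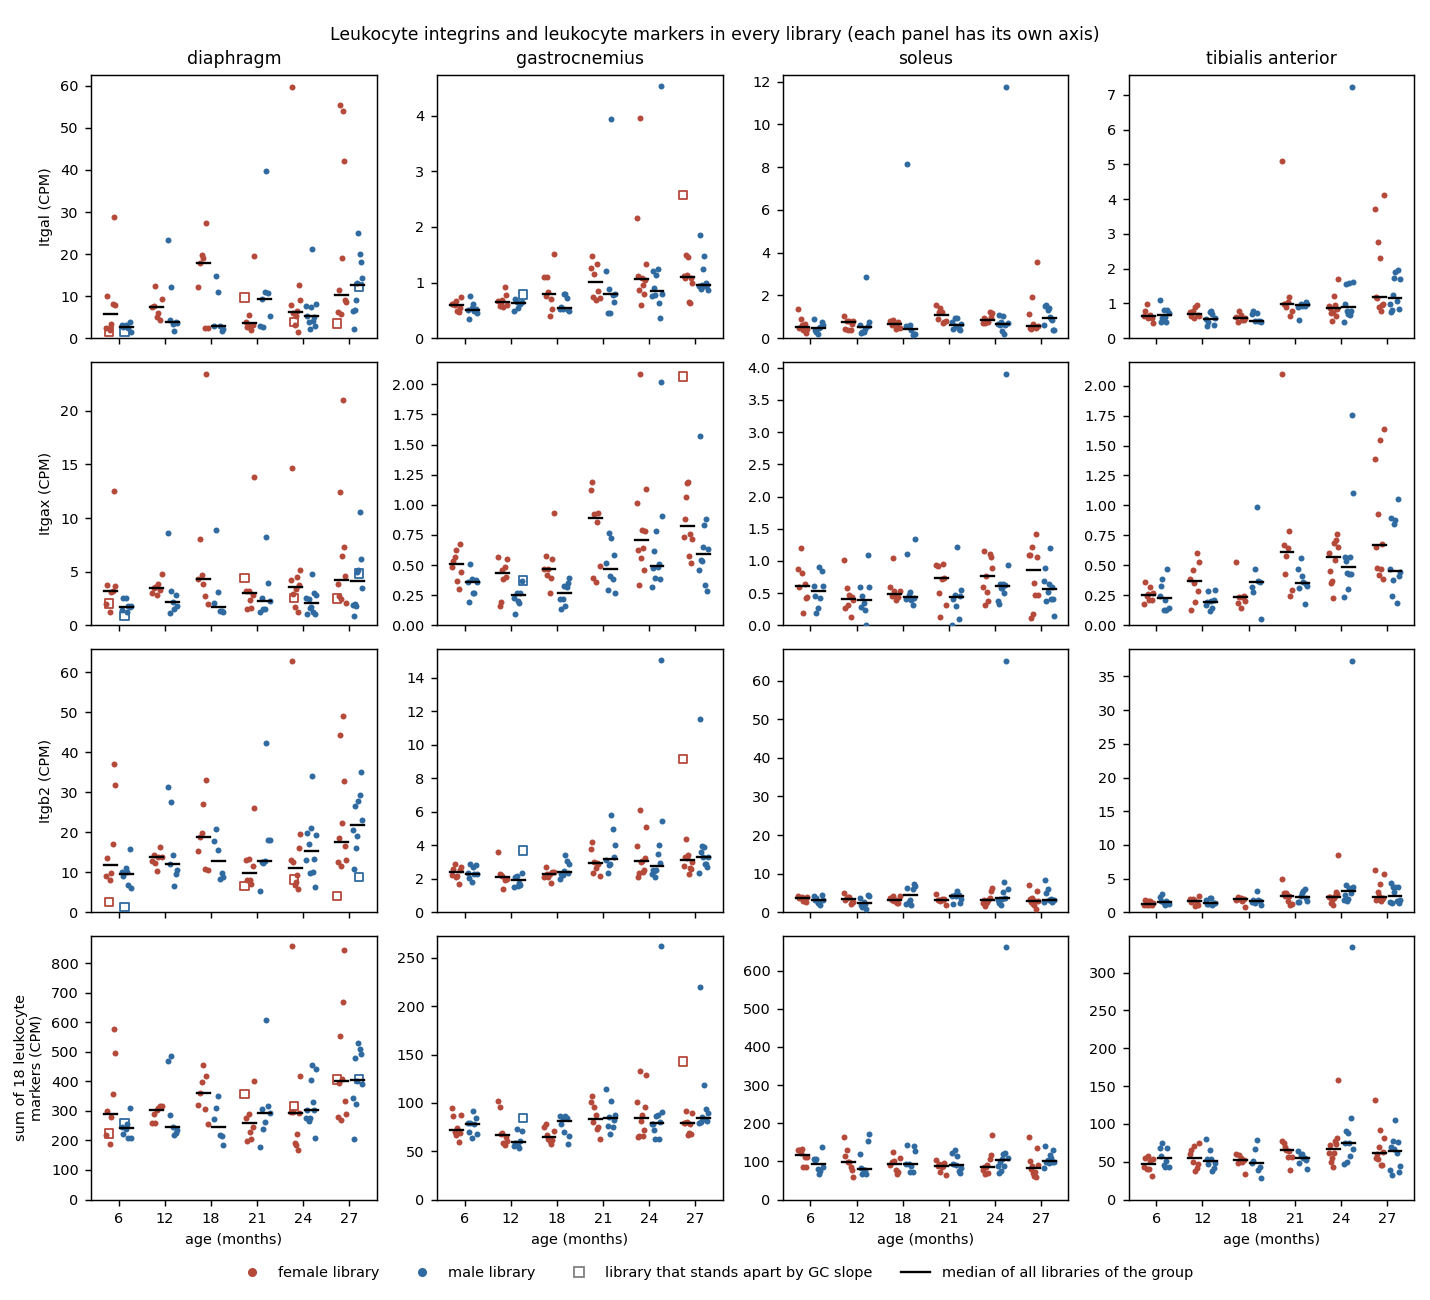
Itgal, Itgax and Itgb2 and the summed level of 18 leukocyte markers in every library by age, in CPM on linear axes that differ between panels, with females in red, males in blue, group medians as black bars and the libraries that stood apart as open squares. In the male diaphragm the Itgal median goes from 2.57 to 12.7 CPM and the marker sum from 243 to 405 CPM.

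Levels over all ages were compared between muscles, with a call at an adjusted p under 0.05 and a fold above 1.5 against the gastrocnemius. In the diaphragm 12 of 37 members were higher and 3 lower in females, where 31.7% of all genes were higher and 20.1% lower, and 14 and 2 in males, beside 29.2% and 22.8%. In the soleus 11 were higher and 4 lower in females (14.2% and 15.1% of all genes) and 10 and 4 in males (14% and 16.9%). In the tibialis anterior 1 was higher and 6 lower in females (2.51% and 12.5%), and 1 and 5 in males (2.83% and 11.4%). The median of all genes in the male diaphragm comparison was 0.02 with TMM scaling and 0.20 with DESeq2's size factors, which called 18 members higher and 1 lower there, and male diaphragm members with differences under 0.2 are therefore given no direction. That median was 0.18 without the libraries that stood apart. Then 19 members were higher and 1 lower in the male diaphragm, 14 and 2 in the female diaphragm, 10 and 2 in the male soleus and 1 and 6 in the male tibialis anterior.

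The diaphragm held more of the leukocyte chains. All 7 were above 1.5-fold in both sexes, with a median log2 difference of 2.51 in females and 2.39 in males, and 18 of 18 leukocyte markers were also higher, with medians of 2.47 and 1.95. Itgal differed most of the 7, by 3.47 in females (SE 0.18) and 2.93 in males (SE 0.21). Lamc3 had the largest difference between any pair of muscles, 3.73 between the female diaphragm and the female tibialis anterior. Against the gastrocnemius it was higher in the diaphragm by 3.20 in females (SE 0.13) and 1.16 in males (SE 0.09), and without the libraries that stood apart by 3.31 and 1.41. Its median over all ages was 7.96 CPM in female and 6.84 CPM in male diaphragm without those libraries, whose Lamc3 was low. Mesothelial markers were higher there by a median log2 difference of 9.73 in females and 9.93 in males, and their part in the level of Lamc3 was not tested. Lama4 was higher in the diaphragm by 0.92 in females and 0.65 in males, Lamb1 by 0.87 in females, and Itgb3 by 1.78 and 1.6. Lama5 was lower, at log2 differences of -0.64 in females and -0.88 in males, or -0.51 and -0.63 without the libraries that stood apart.

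The soleus had little Itga4, which was lower there than in the gastrocnemius, at log2 differences of -2.82 in females (SE 0.10) and -1.87 in males (SE 0.11), whereas in the tibialis anterior it was higher, at 0.83 and 1.33. The median of Itga4 was 88.0 CPM in female tibialis anterior, 48.9 in female gastrocnemius and 6.54 in female soleus. The corresponding male medians were 53.4, 21.5 and 5.02 CPM. Itga4 is also a chain of lymphocytes and monocytes, and the leukocyte markers had median log2 differences of 0.21 in the female and 0.24 in the male soleus. The soleus was higher in the epithelial chain Lamb3 (1.02 and 1.35 in females and males), while 8 of 8 keratinocyte markers were lower there in both sexes. In the tibialis anterior Lamb3 was lower, at -1.87 and -2.07, and 7 of 8 keratinocyte markers were also lower by more than 1.5-fold. Itga5 was higher in the soleus by 1.25 and 0.95, and Itgb6 by 0.85 and 0.90.

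**Figure D5:**
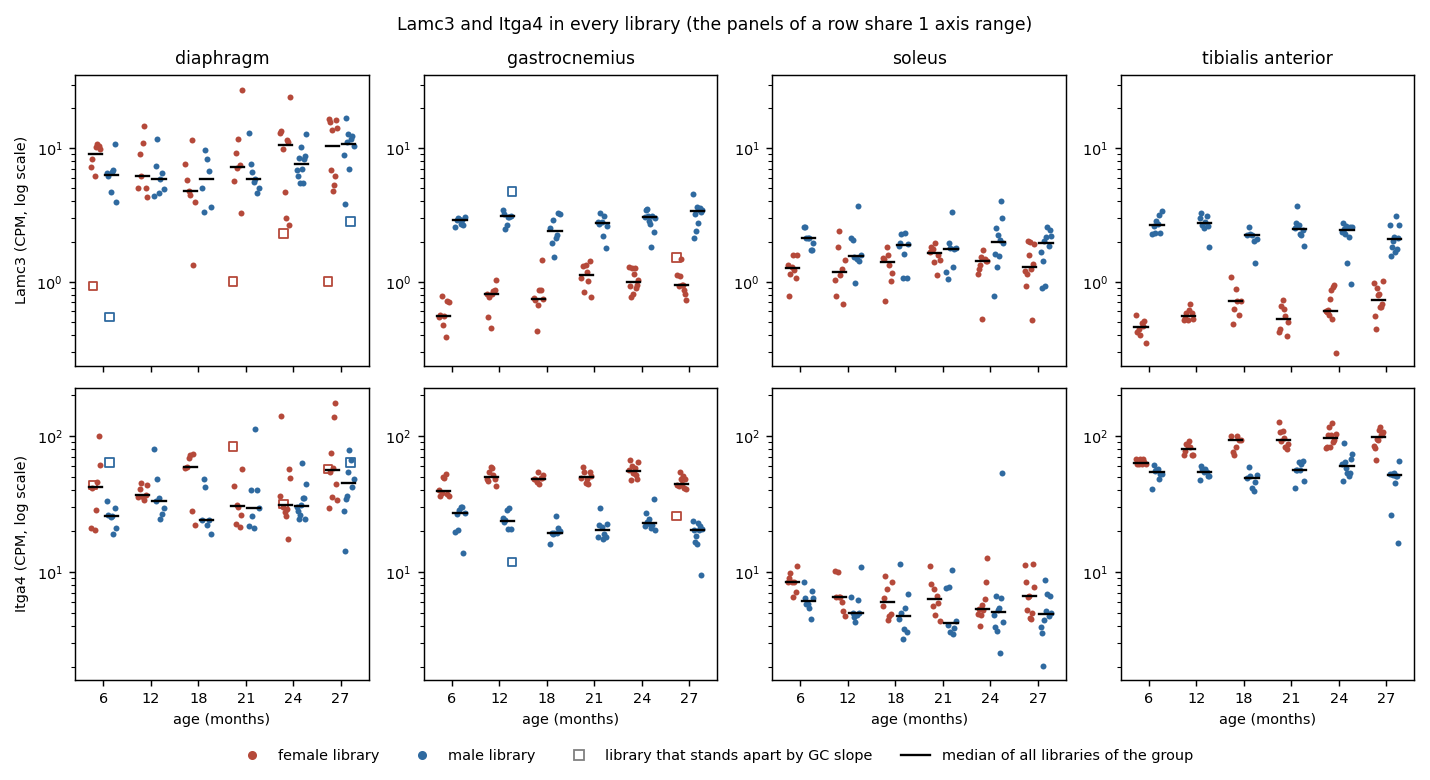
Lamc3 and Itga4 in every library by age, in CPM on log axes, for the 4 muscles, with females in red, males in blue, group medians as black bars and the libraries that stood apart as open squares. Lamc3 is highest in the diaphragm and higher in males in the gastrocnemius and tibialis anterior, and Itga4 is lowest in the soleus, with medians of 6.54 and 5.02 CPM in females and males.

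Lamc3 and Itga4 also differed between the sexes in fast limb muscles, in opposite directions. Lamc3 was higher in males by 1.71 in the gastrocnemius (SE 0.06, edgeR adjusted p = 2.93e-43) and 1.98 in the tibialis anterior (SE 0.07, adjusted p = 1.24e-46), and was not called in the diaphragm (-0.22, adjusted p = 0.41). Its medians in the gastrocnemius were 0.860 CPM in females and 2.93 CPM in males. Itga4 was lower in males, at -1.16 in the gastrocnemius (SE 0.05, adjusted p = 8.34e-39) and -0.70 in the tibialis anterior (SE 0.05, adjusted p = 4.38e-23). Itga9 was lower in the male gastrocnemius, at -0.76 (SE 0.03). Lamb3 was lower in males in the diaphragm, gastrocnemius and tibialis anterior, at -0.62, -0.70 and -0.95. Itgax was lower in males in the diaphragm (-0.79) and gastrocnemius (-0.62). In all, 1 member was higher and 3 were lower in males in the diaphragm (2.06% and 3.12% of all genes), or 1 and 5 without the libraries that stood apart, 1 was higher and 4 were lower in the gastrocnemius (3.12% and 5.05%), 1 was lower in the soleus (2.49%), and 1 was higher and 3 were lower in the tibialis anterior (2.62% and 2.65%).

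The change from 6 to 27 months was then compared between muscles and between sexes by an interaction term. Against the gastrocnemius 2 members passed in the female diaphragm, beside 3.2% of all genes, namely Lama2 and Itgav (-0.26, SE 0.07, edgeR adjusted p = 0.0294). Lama2 and Itga10 passed in the male diaphragm (Itga10 0.99, SE 0.28, adjusted p = 0.0290), beside 3.44% of all genes, and Itga10 did not pass without the libraries that stood apart (0.88) or with voom (0.89). 0 members passed in the female soleus (5.51% of all genes), the female tibialis anterior (0.57%), the male soleus (0.594%) or the male tibialis anterior (0%), with 7, 4, 3 and 1 members at an unadjusted p under 0.05 in edgeR and 0 called by voom. More members passed without the libraries that stood apart. Itgb8 (-0.86, adjusted p = 0.0475), Itgb5 (-0.28, adjusted p = 0.0418) and Itgb1 (-0.18, adjusted p = 0.0419) did so in the female diaphragm. In the female tibialis anterior Lamb3 passed (-1.37, adjusted p = 0.0431). In the male soleus these were Lamb3 (-1.74, adjusted p = 0.0295) and Itgav (-0.27, adjusted p = 0.0174). In these comparisons more of all genes passed as well. In the female diaphragm 557 then differed upward and 570 downward, against 261 and 284 with those libraries. These counts were 35 and 157 against 21 and 76 in the female tibialis anterior, and 92 and 89 against 58 and 43 in the male soleus. Between the sexes, the change differed for Lamc3 (-1.04, SE 0.22, adjusted p = 0.00386), Itga4 (-0.76, SE 0.17, adjusted p = 0.00514) and Itga9 (-0.44, SE 0.12, adjusted p = 0.0443) in the tibialis anterior, beside 1.73% of all genes, where the male change was below the female one. In males of that muscle Lamc3 was at 2.29 to 3.37 CPM (median 2.67) at 6 months and 1.56 to 3.13 (median 2.08) at 27 months, so that the medians moved in opposite directions in the sexes. In the soleus Itgb3 differed by 1.04 (SE 0.28, adjusted p = 0.0487), beside 0.855% of all genes. The values of Itgb3 and Itga9 did not pass with voom (1.01 and -0.43). In the diaphragm and the gastrocnemius 0 members passed (0% and 1.6% of all genes), with 3 and 5 at an unadjusted p under 0.05 in edgeR and 0 called by voom. Itga9 passed in the gastrocnemius without the libraries that stood apart (-0.36, SE 0.10, adjusted p = 0.0404). There 121 of 15776 genes differed upward and 202 downward. Adjusted p values of the sex terms come from edgeR's quasi-likelihood test within a muscle.

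Using all 6 ages, a member was called age-related in a muscle and sex if it passed at an older age with a fold above 1.5 and if a line or a logistic curve on the logarithm of age described its log2 CPM better than a constant by the Bayesian information criterion (BIC). Over the muscles this held 23 times in females and 14 times in males. In the diaphragm 2 members were called in females and 4 in males (2.19% and 3.83% of all genes), and in the gastrocnemius 7 and 6 (5.11% and 5.08%). Leaving out the libraries that stood apart, there were 2 and 2 in the diaphragm and 6 and 7 in the gastrocnemius. Of all genes, 589 and 573 were then called in the diaphragm and 753 and 802 in the gastrocnemius. The soleus had 6 in females and 1 in males (4.75% and 1.39%), and the tibialis anterior 8 and 3 (4.97% and 3.87%). Falling lines were those of Lama2 in the diaphragm of both sexes, of Itga2 in all 4 muscles of females and in the male gastrocnemius, and of Itgb3, Itgb4 and Lama3 in the female soleus. All others rose. A logistic curve was chosen for Itgax in the female gastrocnemius, male gastrocnemius and female tibialis anterior, with its middle at 19.75, 20.5 and 20 months, for Itgal in the male tibialis anterior at 20.75 months, and for Itgb8 in the male gastrocnemius at 23 months. With age in months in place of its logarithm only the curves of Itgax and Itgb8 in the male gastrocnemius stayed logistic. The other 3 were lines. At 12 months edgeR's quasi-likelihood test called 0 members in each of the 8 combinations, with 1 to 8 members at an unadjusted p under 0.05, voom called 0, and DESeq2 called 1 fall in the male soleus.

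Genes that work with these chains were followed as lists at 27 against 6 months. Of 19 basement membrane partners, which cross-link or share the sheet that laminins form, 5 fell in the female and 6 in the male diaphragm, beside 0.988% and 3.52% of all genes, and 1 and 0 were higher at an unadjusted p under 0.05 in edgeR. Among these were the collagen IV chains Col4a3 (-0.88 in females and -1.26 in males) and Col4a4 (-0.95 and -1.27), Col15a1 of the outer fibre surface (-0.79 and -0.95), and the matrix protein Sparc (-0.60 and -0.42), which fell in all 8 combinations. Nid1, the nidogen that bridges laminin and collagen IV, fell in the male diaphragm by 0.67. In the limb muscles the falls among these 19 in females and males were 5 and 8 (gastrocnemius, beside 14.6% and 12.6% of all genes), 6 and 5 (soleus, 8.74% and 1.05%) and 3 and 10 (tibialis anterior, 9.84% and 7.81%). There were 3 rises in the female gastrocnemius (14.6%) and 1 in the female tibialis anterior (12.1%). Fibroblast markers, many of which are matrix genes, fell with them: of 10 tested, 7 and 7 fell in female and male gastrocnemius, 9 and 3 in soleus of females and males, and 3 and 8 in tibialis anterior, beside the same shares of all genes.

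Of the integrin adaptors, which couple the receptor tails to actin, 11 of 25 rose and 3 fell in the female gastrocnemius (14.6% and 14.6% of all genes) and 8 of 24 rose and 1 fell in the female soleus (10% and 8.74%). The male gastrocnemius was mixed: without the libraries that stood apart 8 of 25 rose and 6 fell, beside 2119 and 2015 of 15293 genes. Counts of the male soleus and of the tibialis anterior are not given here. 1 of 24 rose in the male diaphragm (5.13%), or 3 without the libraries that stood apart. In the female diaphragm 0 of 24 changed in edgeR, voom or DESeq2, with 3 at an unadjusted p under 0.05 in edgeR. Without the libraries that stood apart 1 fell there. The rises in the female gastrocnemius included the talin gene Tln1 (0.40), the actin cross-linkers Actn2 (0.72) and Flnc (0.68), and Parvg, the leukocyte parvin (0.96). Of 16 tested ligands other than laminins, 3 rose in the male diaphragm (5.13% of all genes), namely Spp1 (2.40), the osteopontin gene, Vcam1 (1.06), the vascular ligand of Itga4, and Icam1 (0.85), the ligand of the Itgal pair. The female diaphragm went the other way: without the libraries that stood apart 0 rose and 3 fell, beside 262 and 479 of 16142 genes. In the male diaphragm 4 then rose and 0 fell. In the gastrocnemius 3 then rose and 1 fell in females, and 3 rose and 2 fell in males. Of 13 tested laminin receptors that are no integrins, such as dystroglycan and the syndecans, 2 rose and 1 fell in the female gastrocnemius (14.6% and 14.6% of all genes), 3 rose and 2 fell in the female soleus (10% and 8.74%). 3 fell in the male diaphragm (3.52%).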

How the data were processed

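The authors extracted total RNA, made strand-specific libraries with ribosomal RNA removal, sequenced them in pairs and counted reads per gene with ArrayStudio on mm10 with an in-house gene model. The deposited tables are raw counts, 1 table per library, and sample groups follow the labels. The deposited counts hold 25091 rows. Where a gene symbol stood on several rows, the row with the highest total count was kept. The rows left out held 0.0335% of counts. No 2 libraries of a group agreed within sampling noise.

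The members and gene lists were chosen with earlier results of these data known. Values with a spread are CPM with TMM factors over the 407 libraries. Changes with age were fitted per muscle and sex with age as a factor, differences between muscles per sex and between sexes per muscle, with edgeR 4.0.16 (filterByExpr, quasi-likelihood F test, 2-sided, Benjamini-Hochberg over all tested genes). Age-related genes needed a BIC at least 6 below that of a constant for the better of a line and a logistic curve, and the logistic was chosen if it lay at least 2 below the line. Sequences came from RefSeq tables (GRCm38.p6), gene positions and lengths from GENCODE vM21. Named members were those called in 1 direction in at least 4 of 8 combinations, the 3 largest rises and 3 largest falls, the largest difference between muscles, and the fibre, synaptic and capillary laminin chains with Itga7 and Itgb1. Their values are given in full, except that for some calls only the fold is given, and values of other members were added after they had been seen. Alternatives were voom (limma 3.58.1), DESeq2 1.42.0 and its size factors, no filter, Bonferroni adjustment, a replicate block, the run of sample numbers, other BIC margins, age in months, each library left out, and 2 chosen after seeing the data: leaving out the 8 libraries that stood apart and the GC slope as a covariate. Scripts were tested on simulated data. The study counts as many animals as samples of a muscle, so libraries of a group come from separate mice. P-values of comparisons within a muscle measure the spread between mice. Libraries of different muscles may share a mouse. The comparisons between muscles treated them as independent except with the replicate block, so their p-values may not measure that spread alone. Of the 37 members, 1 enters the counts and is not reported here by its own values.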

Additional observations from a re-analysis of the deposited data

Results flagged for a closer look

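In the groups of 6 and 27 months behind the called changes of the named members, the highest or the lowest library lay beyond Dixon's 95% limit in 11 of 90 groups, where chance gives about 1 in 20. For Lama2 these were libraries at 207 CPM (female diaphragm, 6 months), 262 CPM (male diaphragm, 6 months) and 45.3 CPM (male diaphragm, 27 months). 1 library of the female gastrocnemius at 27 months held the highest Itga7 and Lama5, at 91.4 and 92.6 CPM, and the lowest Itgb1, at 129 CPM. That library and the 6-month libraries of 207 and 262 CPM are among the 8 that stood apart by GC content. The library with Lama2 at 262 CPM also held the lowest Lamb1 of its group, at 44.9 CPM. The others were Itgb1 at 144 CPM in the male gastrocnemius at 27 months, Itga2 at 0.0453 CPM in the male soleus at 27 months, Lamb1 at 34.1 CPM in the female soleus at 6 months, and Lamc1 at 199 CPM in the male gastrocnemius at 6 months.

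The change from 6 to 27 months differed between groups, by edgeR's interaction test, for 8 values. Against the gastrocnemius the log2 change was lower in the diaphragm for Lama2, by -0.57 in females and -0.67 in males, and for Itgav in females, by -0.26, and higher for Itga10 in males, by 0.99. Between males and females it differed by 1.04 for Itgb3 in the soleus and by -1.04 for Lamc3, -0.76 for Itga4 and -0.44 for Itga9 in the tibialis anterior.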

How the results depend on the processing

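The count of members called at 27 against 6 months depended most on the alternative in the diaphragm and the male soleus. In the female diaphragm (1 call) it was 3 without the libraries that stood apart and 4 with the GC slope as a covariate, both chosen after seeing the data. In the male diaphragm (10 calls) it was 5 with voom, 2 with the replicate block and 0 with the run as a covariate. In the male soleus (2 calls) it was 1 without a filter, 4 with DESeq2, 1 with the replicate block and 4 with the run. With Bonferroni adjustment, a stricter rule by construction, the counts were 0 and 1 in female and male diaphragm, 2 and 0 in gastrocnemius, 2 and 0 in soleus and 1 and 1 in tibialis anterior, against 1, 10, 15, 12, 15, 2, 10 and 8. Age-related calls went from 23 in females and 14 in males to 3 and 1 with Bonferroni and 15 and 9 with BIC margins of 10 and 4. Members whose change differed between muscles were 6 without the libraries apart and 5 with the GC slope in females (2), and 1 with voom and 4 with the GC slope in males (2). Sex differences were 9 at 6 months alone (14 over all ages), and sex by age differences 2 with voom (4). The interaction of Itga10 did not pass with voom (0.89) or without the libraries apart (0.88), that of Itgb3 with RLE size factors (1.03), voom (1.01), the replicate block (1.00) or the GC slope (0.91), and that of Itga9 without a filter (-0.43) or with voom (-0.43). The cause was not tested. No value that passed in the main fit or under the alternative changed direction. Values that passed in neither were not checked for this.

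Leaving out 1 library at a time gave 1 to 1 calls in female and 4 to 11 in male diaphragm, 13 to 15 and 9 to 13 in gastrocnemius, 12 to 16 and 0 to 3 in soleus, and 9 to 12 and 6 to 9 in tibialis anterior. The 4 calls came without replicate 8 of the 27-month males, and 6 without replicate 1, 5 or 7 of the 6-month males. For Itga2 in the male soleus the call was lost in 8 of the fits that left out a library, and the Itga9 call in the male diaphragm was lost under 20 settings. Calls were lost in 11 such fits for Lama2 in the female gastrocnemius, 10 for Lama2 in the male tibialis anterior, 11 for Lama4 in the male gastrocnemius and 4 for Lamc1 in the female soleus. They were lost for Itgax in the male gastrocnemius without replicate 1 of 27 months, for Lamb3 without replicate 0 of 6 months in the female soleus and without replicate 1 or 7 of 6 months in the female tibialis anterior, and for Lamc1 in the female tibialis anterior without replicate 9 of 27 months. With the replicate block the calls of Itgb1 (3 combinations), Lama5 and Lama4 (male gastrocnemius), Lama2 and Itgax (male tibialis anterior), Lamb1 and Itga9 (male diaphragm) and Lamb2 (male soleus) were lost. Whether the replicate numbers pair muscles of a mouse was not settled. Between muscles of one sex and age, the median correlation of deviations from the group means was 0.118 over 599 pairs of the same number. These ran from -0.587 to 0.869, and 316 were above 0.1. For different numbers the median was -0.020 over 4654 pairs, and 1092 were above 0.1. Between ages and between sexes the median for the same number was 0.027 and 0.025. Depth limits the members at the lowest levels, Lama1 and Itgad.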
